A study of Sus scrofa with 4 samples.

Results

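Glycolysis splits glucose into pyruvate in the cytosol and makes ATP without oxygen, and lactate dehydrogenase turns pyruvate into lactate or lactate back into pyruvate. The healthy adult heart burns mostly fatty acids and also takes up lactate as a fuel, while ischemic heart muscle leans on glycolysis. Several steps are run by related enzymes with different tissue preferences, so that ENO3 and LDHB are the forms typical of muscle and heart, and ENO1 and LDHA are found in many other cells. The genes described here are 10 enzymes of this route (HK1, HK2, GPI, PFKM, ALDOA, PGK1, ENO1, ENO3, LDHA and LDHB), measured by every probe set that carries one of these symbols in the annotation of the array, Affymetrix control probe sets left out. The symbols of 8 of the 10 were found, each on 1 probe set, which gives 8 of the 23999 probe sets that are not Affymetrix controls and 8 of the 6765 genes they name. HK2 and ALDOA were not among the annotated symbols and were not analysed here.

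RNA of heart tissue of minipigs with myocardial infarction (MI) was hybridized to 4 Affymetrix Porcine Genome Arrays. The tested tissue was the infarct zone and the border zone of hearts that had received human skeletal myoblasts by intramyocardial injection, and the control tissue was the same zones of hearts labelled as untreated, with 1 array for each of the 4 conditions. In the methods all animals are female Bama minipigs, and MI was made by tying the left circumflex coronary artery permanently. The control treatment (NC) group received DMEM alone after MI. There, the myoblast and NC groups also received cyclosporin A, and a further MI group received neither DMEM nor cyclosporin A. The labels call the control tissue untreated, while the text of the study names the control treatment group as the one compared on arrays, and the control arrays were taken as that group, which shares the DMEM injection and cyclosporin A with the myoblast group. The number of minipigs behind an array and the time at which tissue was taken are not given in the sources used here. The grafted cells are human while the probes are porcine, and pig and human RNA cannot be told apart in a signal. With 1 array per condition there is no spread between animals, so every comparison below is a description of 4 arrays, with no test. A difference was called at 2-fold, the threshold in the methods.

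Values are MAS 5.0 signals in linear units, and the median signal of an array lay between 137 and 142. Over all probe sets the correlations between arrays on the log2 scale were 0.936 between the zones of myoblast hearts and 0.935 between those of control hearts, against 0.924 to 0.931 across treatments. All 10 cardiomyocyte markers measured were above the array median on every array, among them the cardiac troponins TNNT2 and TNNI3, so the tissue carried the RNA of heart muscle. The 3'/5' signal ratio of GAPDH control probe sets, a sign of RNA integrity, was 1.38 and 1.73 on the myoblast arrays against 1.52 and 1.55 on the control arrays (infarct and border zone). That of actin was higher throughout, at 19.5 and 24.6 on the myoblast arrays against 36.8 and 24.9 on the control arrays, and that of EF1A was 2.49 and 3.01 against 4.13 and 4.17. The EF1A ratio was thus lower on the myoblast arrays in each zone, and the actin ratio in the infarct zone, with close values in the border zone. The GAPDH ratio was lower with myoblasts in the infarct zone and higher in the border zone. The part of RNA integrity in the differences described below was not tested.

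All 8 members were among the brighter signals, from 6.68 times the array median (ENO1, control border zone) to 249 times (LDHB, control infarct zone). No member reached 2-fold in any of the 4 comparisons. For myoblast over control in the infarct zone, 10.6% of all probe sets passed 2-fold upward and 9.58% downward, and in the border zone 9.85% and 10.4%. Much of that background comes from dim probe sets: for the 3628 whose signal averaged 1024 or more, the range in which all members lie, the shares were 1.79% and 1.57% in the infarct zone and 1.96% and 1.68% in the border zone. The members differed by less than 2-fold throughout. In 5 of the 8 (HK1, GPI, PGK1, ENO3 and LDHB) both myoblast arrays lay under both control arrays, in ENO1 both lay over them, and in PFKM and LDHA the treatments overlapped. Over all probe sets 22.1% had both myoblast arrays lower and 22.9% had both higher, and over those of at least 1024 units 32.8% and 24.4%.

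**Figure D1:**
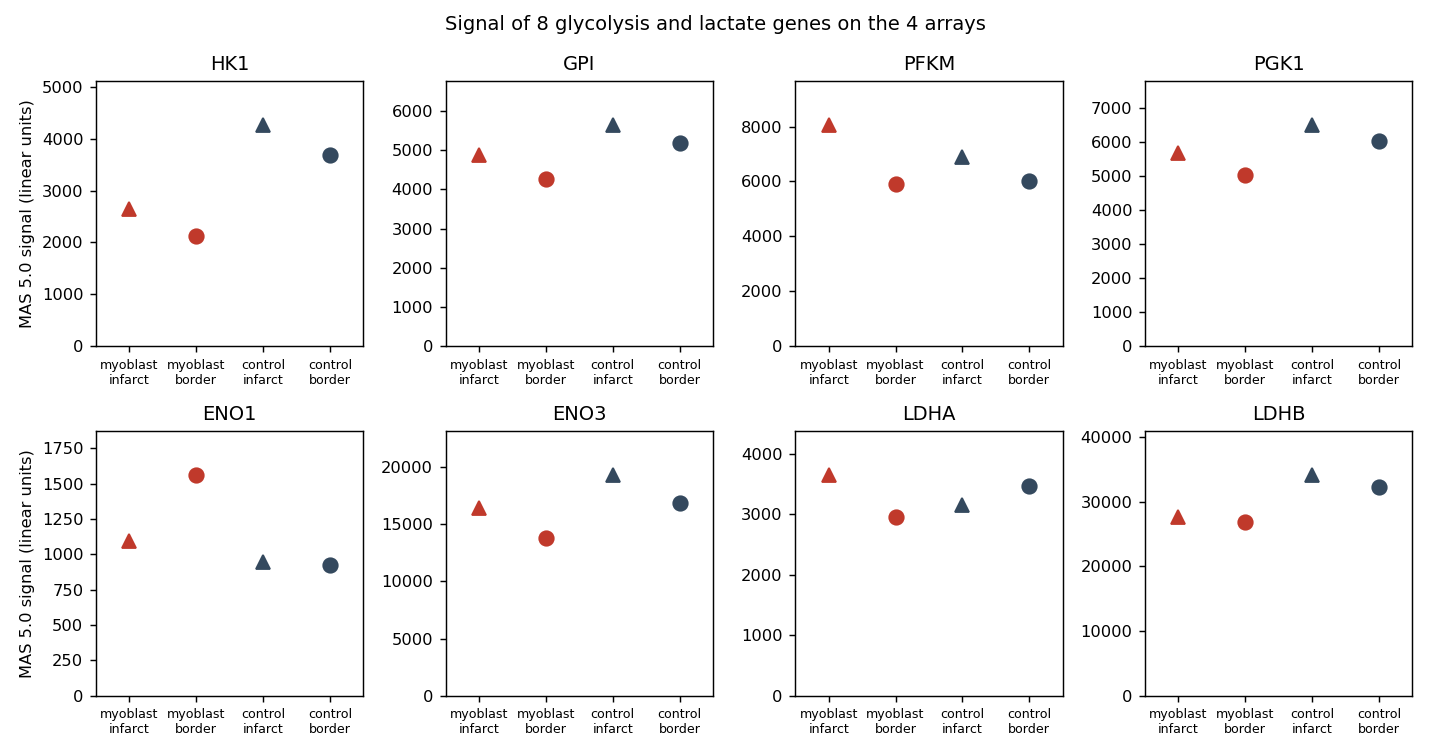
MAS 5.0 signal in linear units (y axis, from 0, its own scale in each panel) of the 8 measured genes on the 4 arrays (x axis, 1 point per array; myoblast red, control dark, infarct zone triangles, border zone circles). HK1 had its highest signal on the control infarct array (4264) and its lowest on the myoblast border array (2133), and ENO1 had its highest on the myoblast border array (1562).

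The first steps of glycolysis differed from each other. HK1, the hexokinase that traps glucose in the cell as glucose 6-phosphate, gave 2649 units with myoblasts and 4264 in controls of the infarct zone, and 2133 against 3683 units in the border zone. Each myoblast array was lower than each control array, with ratios of 0.621 and 0.579 (log2 -0.69 and -0.79), the largest departure from 1 among the members in the mean over zones (0.60). At a milder threshold of 1.5-fold, HK1 was the single member called lower, in both zones. Of all probe sets 17.1% were at least 1.5-fold lower in the infarct zone, 18.7% were so in the border zone and 6.56% in both, and of those of at least 1024 units 6.09%, 7.0% and 3.22%.

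GPI, which turns glucose 6-phosphate into fructose 6-phosphate, had signals of 4876 against 5638 in the infarct zone and 4253 against 5193 in the border zone, myoblast before control. The myoblast arrays were the lower in each zone, with ratios of 0.865 and 0.819. PFKM, the muscle form of phosphofructokinase at the main control point of the pathway, had 8051 against 6905 in the infarct zone and 5898 against 6017 in the border zone. Its ratios of 1.17 and 0.980 lay on opposite sides of 1, and the myoblast infarct array was the highest of the 4. With quantile normalization the border zone log2 ratio of PFKM turned to 0.05, so it has no settled direction there.

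In the later steps, PGK1, the first enzyme of the pathway that makes ATP, resembled GPI. Its signals were 5659 with myoblasts against 6490 in controls of the infarct zone and 5033 against 6016 in the border zone, ratios of 0.872 and 0.837. The enolases, which make phosphoenolpyruvate, departed from each other. ENO1, the form found in most cells, had 1094 against 946 in the infarct zone and 1562 against 927 in the border zone, higher with myoblasts in each zone (ratios 1.16 and 1.68). ENO3, the muscle form, had 16427 against 19322 and 13800.1 against 16838, lower with myoblasts in each zone (0.850 and 0.820). The change of ENO1 was thus 1.36 times that of ENO3 in the infarct zone and 2.06 times in the border zone. ENO1 in the border zone was the single member at least 1.5-fold higher, a mark passed there by 17.6% of all probe sets and 6.01% of those of at least 1024 units. No member was 1.5-fold higher in the infarct zone, where 18.6% of all probe sets were.

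The lactate dehydrogenase subunits had ratios on opposite sides of 1 in the infarct zone and on the same side in the border zone. LDHA, the subunit known from skeletal muscle and from tissue short of oxygen, gave 3654 units with myoblasts and 3163 in controls of the infarct zone, and 2958 against 3476 units in the border zone. Its ratios of 1.16 and 0.851 gave no common direction, and the arrays of the treatments overlapped. LDHB, the heart form, had 27633 against 34127 and 26772 against 32320, lower with myoblasts in each zone (0.810 and 0.828). Its signals were the brightest of the members on every array. The change of LDHA was 1.43 times that of LDHB in the infarct zone and 1.03 times in the border zone. With quantile normalization, which turned LDHB to a log2 ratio of 0.07 in the infarct zone beside 0.22 for LDHA, the distance there was 1.11 times.

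Where a gene is very bright, its ratio has to be read beside those of other bright probe sets. For the 146 whose signal averaged 16384 or more, a limit that ENO3 and LDHB pass, the median ratio of myoblast over control was 0.833 in the infarct zone, with 95.2% of them under 1, and 0.931 in the border zone, with 75.3% under 1. ENO3 (0.850) and LDHB (0.810) lay close to that median in the infarct zone and under it (0.820 and 0.828) in the border zone. With quantile normalization, which gives every array the same distribution of signals, the log2 ratios of ENO3 were -0.06 in the infarct zone and -0.22 in the border zone, and those of LDHB 0.07 and -0.17, so LDHB changed sign in the infarct zone. HK1, whose signals were lower, kept log2 ratios of -0.68 and -0.80, and ENO1 0.19 and 0.74. The part that this shift of bright signals has in the ratios of ENO3 and LDHB was not tested.

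**Figure D2:**
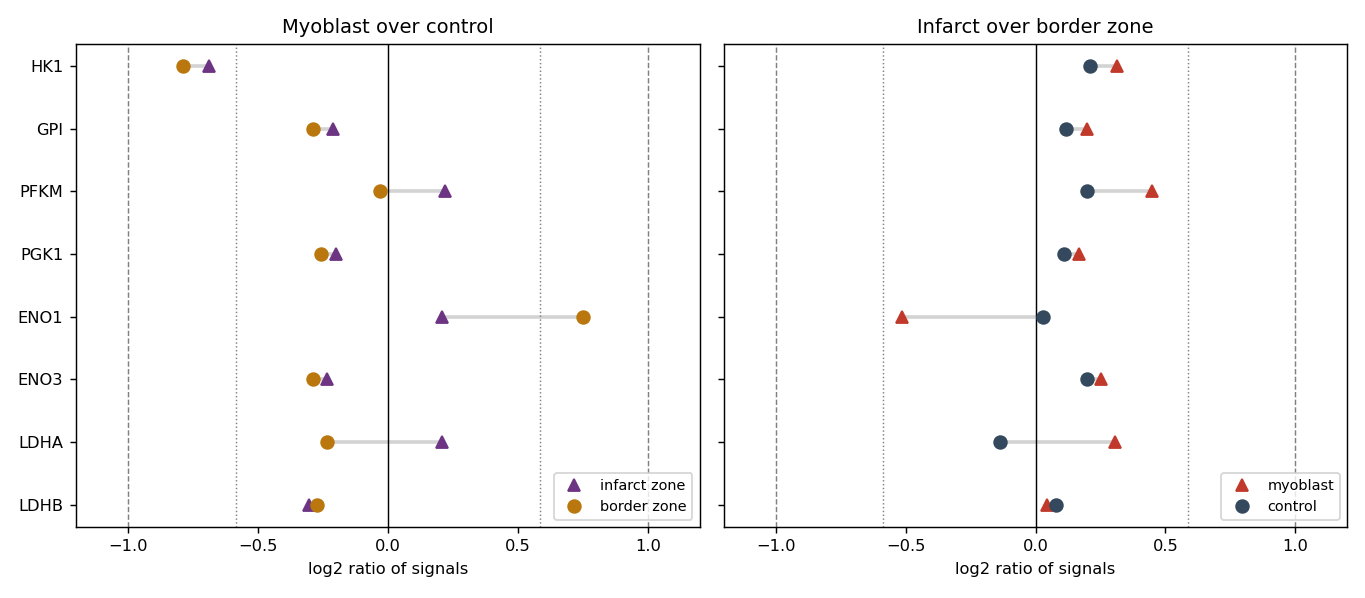
Log2 ratios of signals (x axis) of the 8 genes (y axis, in pathway order), as myoblast over control in each zone (left) and infarct over border zone in each treatment (right). Dashed lines mark 2-fold and dotted lines 1.5-fold; on the left HK1 lies past 1.5-fold lower in both zones (0.621 and 0.579) and ENO1 past 1.5-fold higher in the border zone (1.68).

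Over the 8 members, the median log2 ratio of myoblast over control was -0.20 in the infarct zone and -0.26 in the border zone, beside 0.01 and 0.00 over all probe sets and -0.04 and -0.03 over those of at least 1024 units. Ratios under 1 were seen for 5 of 8 in the infarct zone and 7 of 8 in the border zone. The shares under 1 were 49.1% and 49.8% of all probe sets, and 55.0% and 53.6% of those of at least 1024 units. With quantile normalization the members' median was 0.01 in the infarct zone and -0.19 in the border zone, so the infarct zone median has no settled direction. The difference between the zones in the response, given as the infarct zone ratio over the border zone ratio, was smallest for LDHB (0.978), ENO3 (1.04), PGK1 (1.04), GPI (1.06) and HK1 (1.07). It was wider for PFKM (1.19), LDHA (1.36) and ENO1 (0.686). None of these differences could be tested.

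The zones themselves differed little in the members. Of the 8 genes, 7 had a higher signal in the infarct than in the border zone of myoblast hearts and 7 did so in control hearts, but the exception was ENO1 with myoblasts (1094 in the infarct against 1562 in the border zone, ratio 0.700) and LDHA in control hearts (3163 against 3476, ratio 0.910). Ratios above 1 were held by 52.9% of all probe sets in myoblast hearts and 50.2% in control hearts, and by 57.0% and 54.4% of those of at least 1024 units. Of the 146 very bright probe sets, whose limit ENO3 and LDHB pass, 47.3% were under 1 in myoblast hearts and 5.48% in control hearts. Their median ratios were 1.0 and 1.11. The highest ratios were those of PFKM (1.37), HK1 (1.24) and LDHA (1.24) in myoblast hearts. In control hearts HK1 had 1.16 and PFKM and ENO3 1.15 each. With quantile normalization the log2 ratios there were 0.19 for HK1, 0.14 for PFKM and 0.04 for ENO3. The members' median log2 ratio of infarct over border was 0.22 with myoblasts and 0.11 in controls, beside 0.03 and 0.00 over all probe sets. LDHB, at 1.03 and 1.06, was the gene nearest to 1 in myoblast hearts, and with quantile normalization its log2 ratio in control hearts turned to -0.11.

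No member reached 2-fold between zones, where 9.78% of all probe sets were higher and 8.1% lower in myoblast hearts, and 8.93% and 8.26% in control hearts. None reached 1.5-fold either, against 17.3% higher and 14.9% lower of all probe sets in myoblast hearts, and 14.7% and 13.8% in control hearts. Among probe sets of at least 1024 units 3.03% were 1.5-fold higher and 5.21% lower in myoblast hearts, and 0.441% and 0.469% in control hearts. The comparisons by zone and by treatment share the same 4 arrays and are not independent of each other.

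Markers of the cell types in the tissue also differed between the treatments. Of 10 cardiomyocyte markers, 8 had ratios of myoblast over control under 1 in both zones, with median log2 ratios of -0.39 in the infarct zone and -0.21 in the border zone. Their summed signal was 199187 with myoblasts against 254186 in controls of the infarct zone, and 195524 against 222708 in the border zone. Of the 10, 7 lie in the very bright range, where the median ratio of all probe sets was 0.833 in the infarct zone and 0.931 in the border zone, and with quantile normalization the median log2 ratios of the list were -0.03 and -0.11. NPPA, the atrial natriuretic peptide gene of stressed heart muscle, was the single one higher in both zones (3.38 and 4.24). HK1 had 0.621 and 0.579, and the lowest ratios of these 10 markers were 0.739 (TNNI3, infarct zone) and 0.720 (MYL3, border zone). HK1 lies under the very bright range that holds 7 of the 10, so these ratios are not compared at like brightness. Macrophage and monocyte markers had median log2 ratios of 0.56 and 0.61, with summed signals of 9446 against 6402 and 7518 against 5540 and 5 of 8 higher in both zones, and endothelial markers had 0.42 and 0.27, with summed signals of 9813 against 7272 and 7784 against 7654. Fibroblast markers had -0.03 and 0.51, and their summed signal was 62245 against 71300 in the infarct zone and 98015 against 72681 in the border zone, the array on which ENO1 was highest. In tissue samples fewer cells of a type and less RNA per cell cannot be told apart, and the part of cell composition in the members' ratios was not tested.

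Markers of skeletal muscle, the tissue of origin of the grafted cells, were dim. Of 10 measured, CKM, the muscle creatine kinase that heart muscle also makes, was alone above the array median, with 22307 against 27476 in the infarct zone and 19625 against 23512 in the border zone. MYOD1 and MYF5, the factors that define myoblasts, were under the array median throughout. MYOD1 gave 5.09 units with myoblasts and 34.1 in controls of the infarct zone, and 7.64 against 45.3 in the border zone, and MYF5 gave 2.18 against 29.7 and 3.35 against 17.5. Other dim markers of the list went the other way, such as ATP2A1 with 13.6 against 3.42 and 20.4 against 1.0. Of the 10, 3 were at least 2-fold higher and 3 lower in the infarct zone, and 2 higher and 4 lower in the border zone. Over all probe sets the shares were 10.6% and 9.58%, and 9.85% and 10.4%. Signals this dim gave no common direction and say little about the graft. Of the other lists, smooth muscle markers had median log2 ratios of 0.43 and 0.07, no neutrophil marker was above the array median on all arrays, and the 3 red cell markers had median log2 ratios of 0.30 and 0.44, with the globin gene HBB at ratios of 1.57 and 1.73 and ALAS2, of heme synthesis, at 0.451 and 0.832. The 4 adipocyte markers had -0.13 and 0.09, with FABP4, a fatty acid carrier that endothelium and macrophages also make, at ratios of 4.99 and 3.18, the adipokine ADIPOQ at 0.568 and 0.777 and leptin (LEP) at 0.291 and 1.05.

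**Figure D3:**
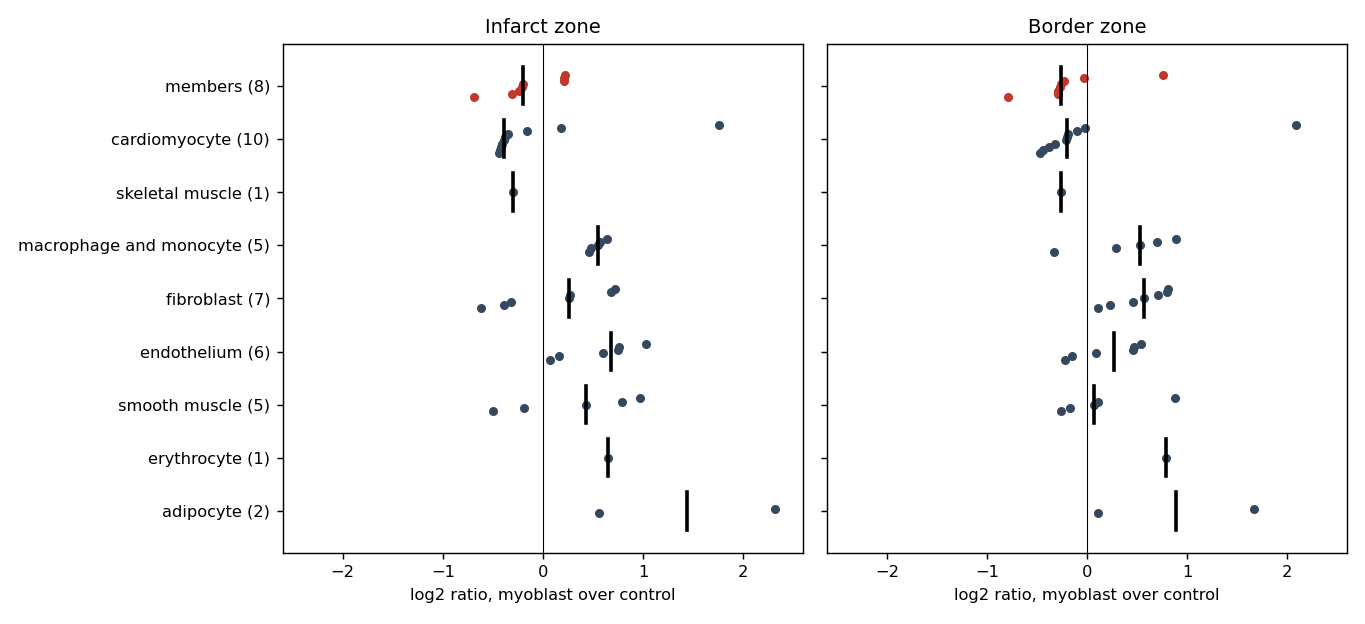
Log2 ratios, myoblast over control (x axis), for the 8 members (red) and of cell type markers above the array median on all 4 arrays (dark, number of genes in brackets), in the infarct zone (left) and the border zone (right). Points are genes and black bars the medians of the genes drawn, while the medians in the text cover all measured markers. The members' medians of -0.20 and -0.26 lie on the same side of 0 as those of the cardiomyocyte markers. With quantile normalization (not drawn) they were 0.01 and -0.19 for the members, and -0.03 and -0.11 for the cardiomyocyte markers.

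The remaining glycolytic enzymes were read from 13 of 19 listed symbols, each by its brightest probe set, of which 9 were above the array median on every array. Their median log2 ratio was 0.13 in the infarct zone and 0.06 in the border zone. None was 2-fold higher. At least 2-fold lower were 3 in the infarct zone and 2 in the border zone, beside 9.58% and 10.4% of all probe sets. None of these was above the array median on every array. They were PGK2 and LDHC, enzymes known from the testis, in both zones, and LDHD, a mitochondrial D-lactate dehydrogenase, in the infarct zone (18.6 against 233, its second and dimmer probe set 49.5 against 52.5). TPI1, next to aldolase in the pathway, had 4293 against 3763 and 3410 against 3199, ratios of 1.14 and 1.07. PGAM2, the muscle phosphoglycerate mutase, had 1.41 and 1.15. ALDOC, an aldolase known from brain, had the highest ratio in the mean over zones among those above the median (460 against 286 and 335 against 239, ratios of 1.61 and 1.40). PKM, the pyruvate kinase, had 0.884 and 1.05. The brightest GAPDH probe set, for the enzyme between TPI1 and PGK1, had 0.777 and 0.917, and the next brightest 0.664 and 0.762, both in the very bright range where the median ratio was 0.833 in the infarct zone and 0.931 in the border zone. A dimmer GAPDH probe set, at 318 to 505 units and above the array median throughout, had ratios of 1.16 and 1.21. The remaining GAPDH probe sets, at most 144 units, had 0.843 and 0.724 in the infarct zone and 0.849 and 0.568 in the border zone. The glycolytic enzymes thus lay on both sides of 1, with TPI1 and PGAM2 higher and PGK1 and ENO3 lower with myoblasts in both zones. GAPDH was lower in both zones on its brightest and next brightest probe sets and higher on the dimmer one at 318 to 505 units.

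Glucose entry and lactate exit were covered by 8 of 10 listed genes (median log2 ratio 0.30 in the infarct zone and -0.14 in the border zone). Of these, 2 were at least 2-fold higher in the infarct zone and none in the border zone, beside 10.6% and 9.85% of all probe sets. SLC2A3, the glucose transporter GLUT3 of neurons and white blood cells, rose in the infarct zone, with 3964 with myoblasts against 1657 in controls (2.39 times), and had 2899 against 1729 in the border zone (1.68 times). SLC2A4, the insulin-controlled GLUT4 of muscle and heart, was under the array median on every array, where its brightest probe set gave 106 against 27.9 and 56.3 against 74.7. Its other probe sets had ratios of 0.493 and 0.819 in the infarct zone and 0.704 and 0.964 in the border zone, so the dim SLC2A4 signals gave no common direction. SLC2A1, the widespread GLUT1, had ratios of 0.773 and 0.838. BSG, the partner protein of the lactate carriers, had 1.15 and 0.986, and the lactate exporter SLC16A3 was dim, with 84.6 against 62.4 and 53.7 against 54.9. TXNIP, an inhibitor of glucose uptake, had the lowest mean ratio of those above the median (0.765 and 0.828), at signals of 21959 to 28704 that lie in the very bright range described above.

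Enzymes that control glycolysis or bring pyruvate into mitochondria were covered by 11 of 21 symbols (median log2 ratio 0.01 in the infarct zone and -0.17 in the border zone). PDHA1, a subunit of pyruvate dehydrogenase that commits pyruvate to oxidation, had 1812 with myoblasts against 2499 in controls of the infarct zone and 1351 against 2744 in the border zone. It fell past 2-fold in the border zone (ratio 0.492) and had 0.725 in the infarct zone. PDHB, its partner subunit, had 0.894 and 0.764. PDK4, the kinase that switches pyruvate dehydrogenase off, had 0.801 and 0.889 on its brighter probe set and 0.693 and 0.490 on its dimmer one, which had 2785 against 4021 and 1783 against 3639 and so passed 2-fold in the border zone. PDK3 had 1.07 and 1.67 on its brightest probe set, which like ENO1 was highest on the myoblast border array (578). A dim PDK3 probe set, at most 43.5 units, had 1.84 and 0.597. ADPGK, an ADP-dependent glucokinase, had 228 against 131 and 307 against 153, ratios of 1.74 and 2.01, the second past 2-fold, and was dimmer than the array median in the control infarct zone. MPC1 and MPC2, the subunits of the mitochondrial pyruvate carrier, stayed between 0.866 and 1.03.

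Glycogen genes were covered by 10 of 18 symbols (median log2 ratio -0.38 in the infarct zone and -0.01 in the border zone). By the brightest probe set of each gene, none passed 2-fold but the dim PHKG1, lower in the infarct zone, where 9.58% of all probe sets were. Dimmer GYS1 probe sets (at most 60.2 units) had ratios of 6.68 and 7.95 in the infarct zone and 2.17 and 1.17 in the border zone. The brightest GYS1 probe set had 0.687 and 0.91. PYGM, the muscle glycogen phosphorylase that releases stored glucose, had 1699 against 2939 in the infarct zone and 1373 against 2423 in the border zone (0.578 and 0.567). A second PYGM probe set had 818 against 1248 and 599 against 1144 (0.655 and 0.524), in the same direction. The remaining PYGM probe sets, at most 89.1 units, had ratios of 1.21 and 1.01 in the infarct zone and 1.0 and 0.210 in the border zone. GYG1, the primer of glycogen synthesis, had 0.718 and 0.692, and UGP2, which makes the sugar donor, 0.670 and 0.763. PGM1, which links glycogen to glycolysis, had 1.32 and 1.15. Of the 5 gluconeogenesis genes measured (median log2 ratio -0.92 and 0.25), FBP1 alone lay above the array median on all arrays. FBP1, the fructose bisphosphatase that runs against phosphofructokinase, rose 3.01 times in the infarct zone (1544 against 514) and 3.87 times in the border zone (2432 against 628). PC, pyruvate carboxylase, had 0.725 and 0.515.

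**Figure D4:**
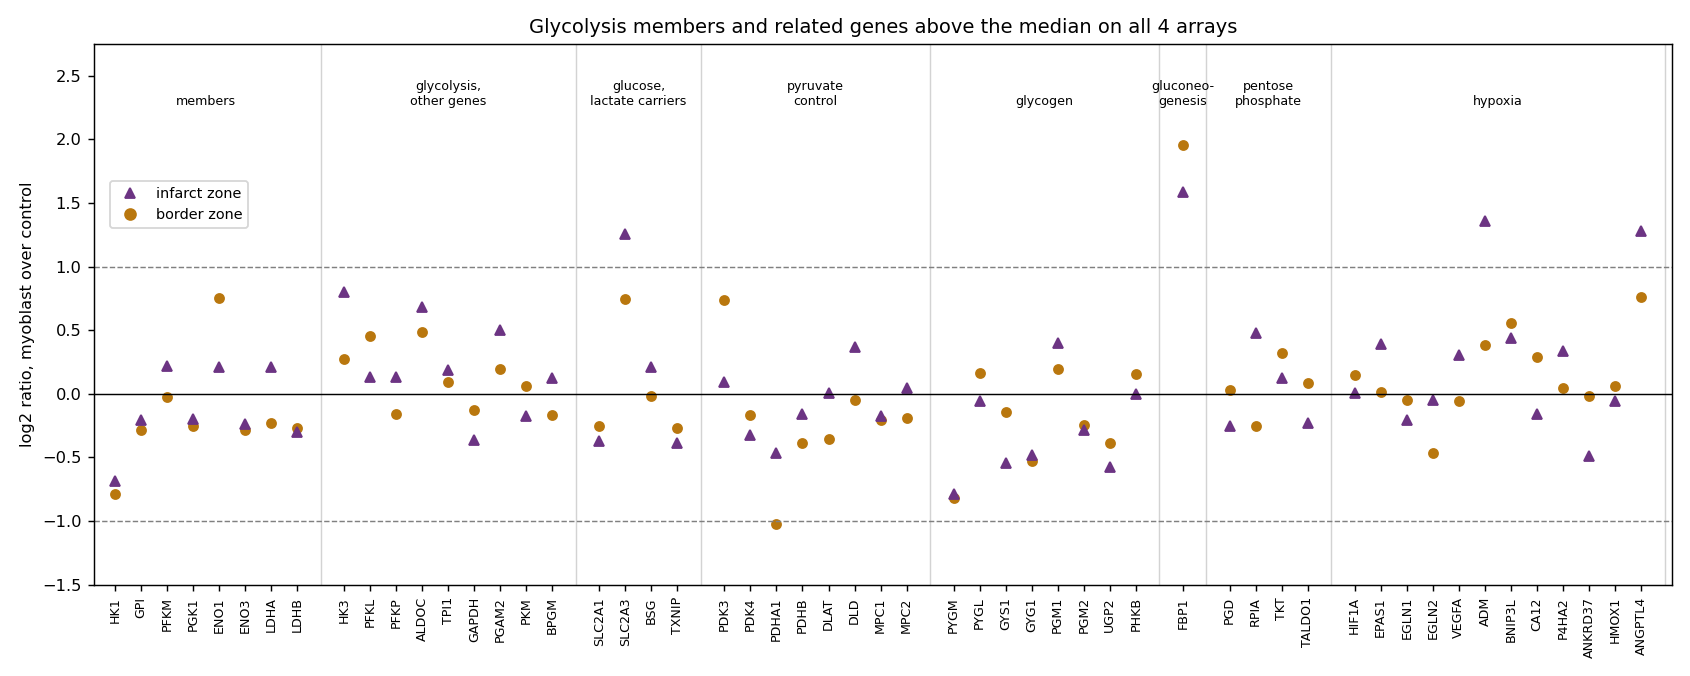
Log2 ratio of myoblast over control (y axis) in the infarct zone (triangles) and the border zone (circles) of the 8 members and of related genes above the array median on all 4 arrays (x axis, grouped by role). Dashed lines mark 2-fold; FBP1 lies past it in both zones (3.01 and 3.87 times), SLC2A3 (2.39 times), ADM (2.56 times) and ANGPTL4 (2.42 times) in the infarct zone, and PDHA1 in the border zone (0.492).

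HK1 varied most among the members, with its highest array 2.0 times its lowest. Of the other genes above the median on all arrays, those with the most similar pattern over the 4 arrays, by the Euclidean distance of log2 signals centred on each gene's mean, were CASQ2 (distance 0.06), the calsequestrin that stores calcium in heart muscle, TSPAN9 (0.06), a tetraspanin, STX11 (0.07), a syntaxin, ECSIT (0.08), an assembly factor of mitochondrial complex I, and PYGM (0.08). CASQ2 had signals of 720 with myoblasts against 1129 in controls of the infarct zone and 562 against 1027 in the border zone. ECSIT had 963 against 1603 and 805 against 1295. In each of these the order of the arrays was that of HK1, with the control infarct array highest and the myoblast border array lowest. That order follows from choosing the genes by their likeness to HK1. With 4 points, likeness of pattern is a description only.

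**Figure D5:**
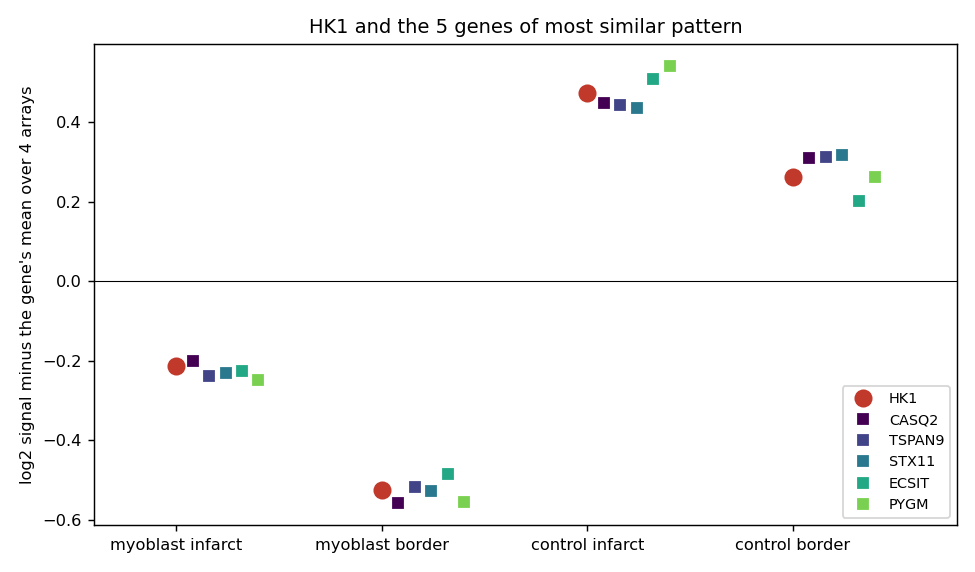
Log2 signal minus the gene's own mean over the 4 arrays (y axis) of HK1 (red circles) and the 5 genes of most similar pattern (squares) on each array (x axis, points set side by side so that they do not overlap). In each gene both myoblast arrays lie under both control arrays, for example 720 and 562 against 1129 and 1027 for CASQ2 (infarct and border zone), which follows from the choice by likeness to HK1.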

How the data were processed

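RNA of heart tissue was hybridized to 4 Affymetrix Porcine Genome Arrays, 1 array per condition. The authors normalized the raw data with the MAS 5.0 algorithm, and the deposited table holds its signals on the log2 scale. MAS 5.0 corrects for background and brings arrays to 1 trimmed mean, here 500.1 with 2% left off either end. Symbols came from the platform annotation, by which 8 members had 1 probe set each, all with the same symbol by gene ID in the RefSeq annotation of the pig. Of 24123 probe sets, 124 Affymetrix controls were left out of counts.

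Log2 signals were subtracted within each zone (myoblast minus control) and within each treatment (infarct minus border zone), with Python 3.11.15, numpy 2.4.6 and pandas 2.3.3. A probe set was called at 2-fold, with no test, as no spread between animals can be estimated. For related genes the brightest probe set was taken, and lists were described by counts and medians beside all probe sets. The counting of 2-fold calls was tested on simulated data with known changes. The members and gene lists were chosen with earlier results of these data known. Genes named are all members, every PDK gene, in each pathway list the largest rise and fall among genes above the array median on the higher array in both zones, and the 5 genes most like the most variable member. Others, cell type markers among them, were chosen after their values were seen, for their place in the pathway. Alternatives were quantile normalization, subtraction of array medians, a floor set to the median or the 25th percentile, 1 probe set or a mean per gene, probe sets above the median, and a 1.5-fold call. The precision is limited by the number of arrays.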

Additional observations from a re-analysis of the deposited data

How the results depend on the processing

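None of the 8 members passed 2-fold in any comparison under quantile normalization, subtraction of array medians, a floor set to the median or the 25th percentile of an array, or restriction to probe sets above the median, and taking 1 probe set or a mean per gene changed nothing, since each member has 1 probe set. With a call at 1.5-fold, 1 member was lower in the infarct zone (HK1), 1 was lower in the border zone (HK1) and 1 was higher in the border zone (ENO1) for myoblast over control, and none between zones. All members lay above the median, so the floors moved no value. Subtracting medians changed no sign. Quantile normalization moved no member by over 1.5 times, but turned the sign of PFKM in the border zone, LDHB in the infarct zone and LDHB between zones of control hearts, with a largest shift of 0.38 on the log2 scale (infarct zone, myoblast over control). It also turned the median log2 ratio of the pyruvate control list (infarct zone, to -0.01), the pentose phosphate list (border zone, to -0.01) and the fibroblast markers (infarct zone, to 0.10). The cause was not tested. With 1 array per condition no array could be left out.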

Other observations

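Genes of the response to low oxygen other than glycolytic enzymes were covered by 16 of 23 symbols, with a median log2 ratio of myoblast over control of 0.16 in the infarct zone and 0.03 in the border zone. HIF1A, the oxygen-sensitive factor known to drive glycolytic genes, had 3111 with myoblasts against 3101 in controls of the infarct zone and 2807 against 2539 in the border zone, ratios of 1.0 and 1.11 by the brightest probe set. The other 3 HIF1A probe sets were far under the array median (at most 41.3 units), with ratios of 0.293, 0.315 and 1.43 in the infarct zone and 0.961, 2.54 and 2.01 in the border zone. Of the 16, each by its brightest probe set, 4 were at least 2-fold higher in the infarct zone, where 10.6% of all probe sets were. Among the 4, ANGPTL4, an inhibitor of lipoprotein lipase (410 against 169, 2.42 times), and ADM, a vasodilator peptide (968 against 377, 2.56 times), were above the array median on every array. ARNT and TFRC were not. In the border zone ANGPTL4 had 1.70 and ADM 1.31. By the brightest probe set none of the 16 passed 2-fold there, against 9.85% of all probe sets higher and 10.4% lower. Besides those of HIF1A, probe sets under the array median passed 2-fold there for ANGPTL4 (3.26), ARNT (5.25), KDM3A (6.24), CA9 (0.217) and VEGFA (0.475). BNIP3L, a mitophagy receptor, had 1.35 and 1.47 on its brightest probe set and 0.999 and 0.989 on another, and KDM3A, a histone demethylase, had 0.698 and 0.983. The pentose phosphate pathway, a side branch that starts from the product of HK1, was covered by 5 of 8 symbols (median log2 ratio -0.23 and 0.03). TKT, a transketolase, had 1.09 and 1.25, and PGD, phosphogluconate dehydrogenase, 0.839 and 1.02.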
